A study of Mus musculus with 12 samples.

Results

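The genotype by etoposide interaction is the difference between the etoposide response of TFEB/TFE3 DKO MEFs and that of Null MEFs, on the log2 scale: DKO etoposide minus DKO control, less Null etoposide minus Null control. All 12 libraries of the series enter it. Of the 24421 genes in the deposited count table, 15220 had enough counts to be tested, and each was tested. A value above 0 means that the transcript rose more, or fell less, in DKO than in Null MEFs, and a value below 0 the opposite. Lost, gained and reversed responses were found in 1259 of the tested genes.

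TFEB and TFE3 are basic helix-loop-helix leucine zipper transcription factors that move to the nucleus when the kinase mTORC1 is inhibited and that bind E-box motifs in lysosomal, autophagy and stress genes. Etoposide traps topoisomerase II on cut DNA and leaves double-strand breaks. Such breaks stabilize the transcription factor p53, whose targets act in cell cycle arrest, repair and apoptosis and include Mdm2, the ligase that degrades p53.

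RNA-Seq was done on mouse embryonic fibroblasts (MEFs) in 4 groups of 3 libraries: Null MEFs without treatment, Null MEFs after 8 hr in 100 µM etoposide, and DKO MEFs under the same conditions. The sample labels name the control genotype Null, which is read here as MEFs with both genes intact, though the labels do not say so. DKO MEFs had Tfeb and Tfe3 inactivated by CRISPR/Cas9. Each genotype was 1 line, so genotype and clone cannot be told apart. The MEFs were immortalized with SV40, which can alter the stability of p53 according to the paper. The labels describe the controls as untreated and the methods of the paper as given DMSO. Counts on genes ranged from 45577023 (DKO etoposide replicate 1) to 104120871 (DKO control replicate 2). No label says that the replicates came from separate cultures, so p-values measure the spread between these libraries, which may be technical. With 3 libraries against 3, an exact permutation test of a single gene cannot give a two-sided p below 0.1, and the tests used here draw on the spread of all genes.

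All 8 fibroblast markers were detected. Thy1 was close to absent in DKO MEFs, at a mean of 0.0365 CPM in control libraries against 4.21 CPM in Null MEFs. The summed level of the 8 was 6895, 6896 and 6992 CPM (counts scaled to a common library size by the TMM method) in Null control libraries and 3974, 3881 and 3875 CPM after etoposide. In DKO MEFs the sums were 10307, 10886 and 10340.3 CPM without and 4688, 4829.9 and 4493 CPM after etoposide. The intermediate filament gene Vim was the most abundant of the 8 on average, and the sum was lower after etoposide in every library of both genotypes. Markers of other cell types were low, apart from the neural list, which Nes, a filament gene that fibroblasts also use, led at 293, 279 and 282 CPM in Null control libraries. Summed neural markers were 397, 385 and 389 CPM in Null control, 425, 419 and 403 in Null etoposide, 239, 238 and 241 in DKO control and 219, 217 and 234 in DKO etoposide libraries.

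The skeletal muscle and macrophage lists moved with the groups. Summed muscle markers, with 7 of 8 detected and Myf5 at or below 3 counts throughout, were 2.45, 2.09 and 2.24 CPM in Null control and 37.8, 40.8 and 41.7 CPM in Null etoposide libraries. DKO libraries held 0.316, 0.511 and 0.436 CPM without and 5.30, 5.38 and 5.52 CPM after the drug. The filament gene Des made up most of the sum except in DKO etoposide libraries, where it was at 2.51, 2.23 and 2.57 CPM, against 33.2, 37.5 and 38.2 CPM in Null etoposide libraries. For the macrophage list 7 of 8 genes were detected, Tyrobp was not, and the sums were 2.26, 1.92 and 2.47, then 14.7, 14.5 and 15.3 CPM in Null and 4.45, 3.51 and 3.71, then 7.99, 7.05 and 9.01 CPM in DKO MEFs, with the lysosomal gene Cd68 the highest on average. Both sums were higher after etoposide in both genotypes and reached lower levels in DKO MEFs. Summed epithelial markers (8 of 8 detected, with Krt8 the highest on average) were 2.68, 2.32 and 2.95 CPM in Null control, 3.80, 4.47 and 4.35 in Null etoposide, 5.25, 5.18 and 5.96 in DKO control and 3.06, 2.43 and 2.60 in DKO etoposide libraries. Summed endothelial markers (8 of 8, with Vwf the highest after etoposide in Null MEFs) were 0.270, 0.169 and 0.232 CPM, 5.36, 5.11 and 4.8 CPM, 0.211, 0.0652 and 0.185 CPM and 2.02, 1.64 and 1.5 CPM in the same order. The part of any other cell type in the results was not tested.

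The targeted genes come next. Tfeb (chr17:47737030-47792419, GRCm38) was measured at 38.9, 39.2 and 42.1 CPM in Null control and 11.4, 10.2 and 10.4 CPM in Null etoposide libraries, against 4.60, 6.09 and 4.68 CPM in DKO control and 1.92, 1.61 and 2.2 CPM in DKO etoposide libraries. Each of the 6 DKO libraries lay below each of the 6 Null libraries. Tfe3 (chrX:7762560-7775202) was measured at 115, 109.9 and 114 CPM in Null control, 68.5, 69.6 and 68.1 in Null etoposide, 94.1, 93.1 and 91.0 in DKO control and 70.7, 71.2 and 63.4 CPM in DKO etoposide libraries. Its DKO and Null libraries overlapped after etoposide, so Tfe3 transcript remained in DKO MEFs, and a transcript count does not show whether protein is made from it. Both transcripts fell with the drug in both genotypes. The falls were smaller in DKO MEFs, by an interaction of 0.49 for Tfeb (SE 0.17, adjusted p = 0.0195) and 0.28 for Tfe3 (SE 0.06, adjusted p = 0.000697). SE is the standard error of the fitted log2 value, and p-values are adjusted by the Benjamini-Hochberg method over all genes tested. The Tfeb interaction was 0.40 without DKO control replicate 1 and 0.32 without DKO etoposide replicate 3, and neither of these values passed the threshold.

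The response to etoposide differed between the genotypes for 8226 of the 15220 genes (54.0%) at an adjusted p under 0.05. Of these, 4507 (29.6% of the tested genes) lay above 0 and 3719 (24.4%) below. This split moved with the scaling: with library size alone in place of TMM, 5734 genes lay above and 3055 below, and the median interaction of all genes was 0.15 in place of 0.05. With DESeq2 size factors in place of TMM, 3797 lay above and 4192 below, with a median of -0.02, so the larger side turns with the scaling. An interaction of at least 2-fold was called for 1919 genes (12.6%), with 639 (4.20%) above 0 and 1280 (8.41%) below. In Null MEFs 3415 genes (22.4%) rose at least 2-fold and 1233 (8.10%) fell at least 2-fold. In DKO MEFs 2718 (17.9%) rose and 1207 (7.93%) fell by that much.

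The Null and DKO responses share no library, so they can be set side by side. Across the 15220 genes, which are not independent replicates, the Pearson correlation of both responses was 0.76 and the Spearman correlation 0.73. Of the genes that rose at least 2-fold, 2087 did so in both genotypes, which is 61.1% of the Null list and 76.8% of the DKO list. Of those that fell, 613 were shared, 49.7% of the Null and 50.8% of the DKO list. The size of the response also differed, with a median absolute log2 fold change of 0.57 in Null and 0.49 in DKO MEFs. Responses of at least 2-fold in opposite directions were few, 49 that rose in Null and fell in DKO MEFs and 15 the other way.

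**Figure D1:**
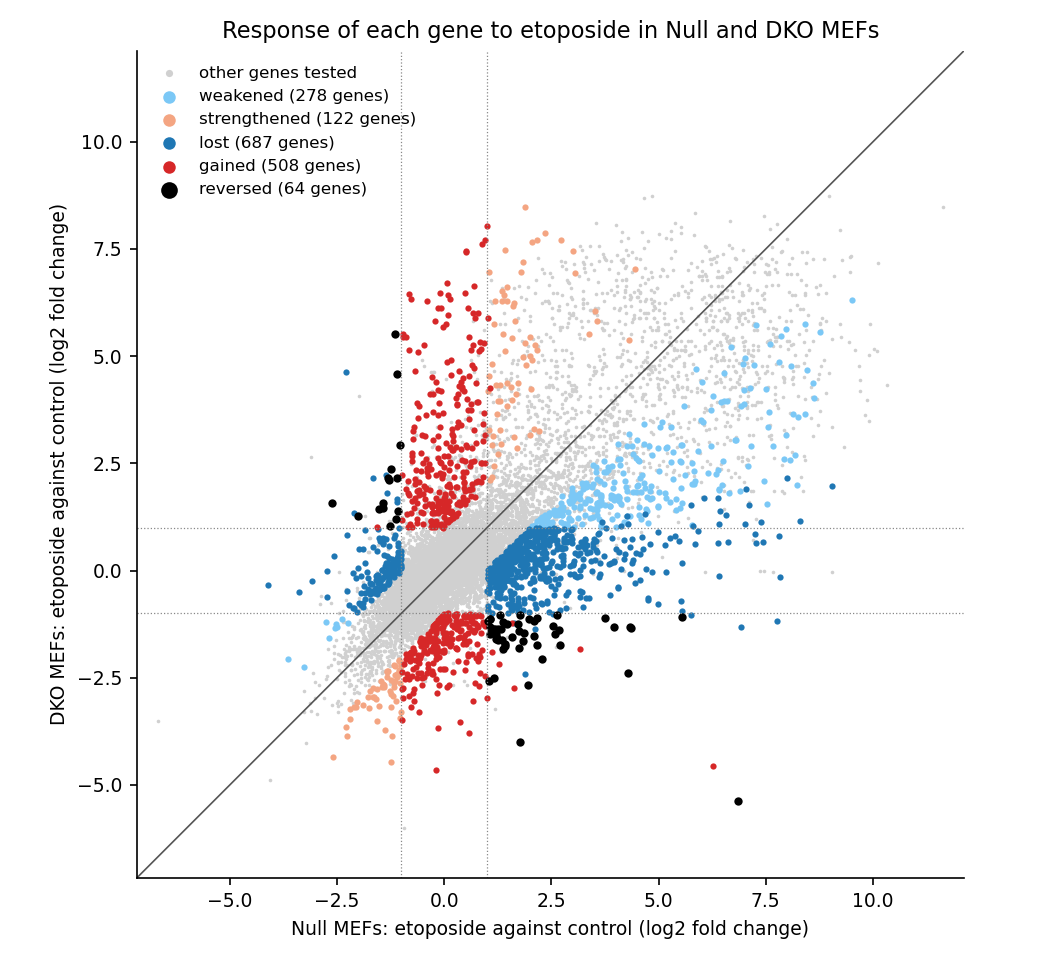
Log2 fold change with etoposide of each of the 15220 genes in Null (x axis) and DKO MEFs (y axis), coloured by response class, with dotted lines at the 2-fold limits and the diagonal of equal response. Most of the 687 genes with a lost response lie at the right, under the upper dotted line, and the 64 reversed genes in the corners of opposite sign.

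The 1919 genes were put in classes by their response in each genotype, where a response means an adjusted p under 0.05 and a change of at least 2-fold. A response seen in Null and not in DKO MEFs was called lost (687 genes), the opposite gained (508), and responses in opposite directions reversed (64). In 278 genes the response kept its direction and was weakened in DKO MEFs, in 122 it was strengthened, and 260 genes did not reach the 2-fold limit in either genotype. Lost responses were 544 rises and 143 falls, gained responses 276 rises and 232 falls. The reversed genes were 49 that rose in Null and fell in DKO MEFs and 15 that did the opposite. Of the 278 weakened responses 269 were rises, and the 122 strengthened responses were 66 rises and 56 falls.

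Lost does not mean absent. Of the 544 lost rises, 204 still rose in DKO MEFs by less than the limit, 264 were not past the threshold there and 76 fell. For the 143 lost falls, 46 still fell, 74 were not past the threshold and 23 rose. In Null MEFs, 49 of the 276 gained rises rose by less than the limit, 173 were not past the threshold and 54 fell. The 232 gained falls comprised 80 that also fell in Null MEFs by less than the limit, 90 not past the threshold and 62 that rose. Some genes not past the threshold in the other genotype still had a fitted change there beyond the 2-fold limit. They were 26 lost rises, 7 lost falls, 4 gained rises and 6 gained falls.

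The classes differed in level. The median gene with a lost rise went from 2.30 to 9.23 CPM in Null MEFs and stood at 4.08 CPM without and 4.51 CPM with etoposide in DKO MEFs. For a gained fall the medians were 9.88 and 10.6 CPM in Null against 31.5 and 9.39 CPM in DKO MEFs, so the groups were closest after the drug. Strengthened falls also stood highest in DKO control libraries, with medians from 37.0 to 16.6 CPM in Null and from 125 to 19.4 CPM in DKO MEFs. Gained rises were mostly faint transcripts, with medians of 1.37 and 1.51 CPM in Null and 0.107 and 0.535 CPM in DKO MEFs. In 91 of these 276 genes a whole group was at or below the floor of 3 counts per library, where the fitted fold depends on the prior count and is no bound. The same held for 35 of the 66 strengthened rises, 49 of the 544 lost rises and 39 of the 269 weakened rises. The levels and the class of a gene come from the same libraries, so the order of the levels is a description. Where a mean of at least 5 CPM in at least 1 group was asked for, 327 lost rises, 105 lost falls, 83 gained rises, 182 gained falls and 35 reversed genes remained.

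**Figure D2:**
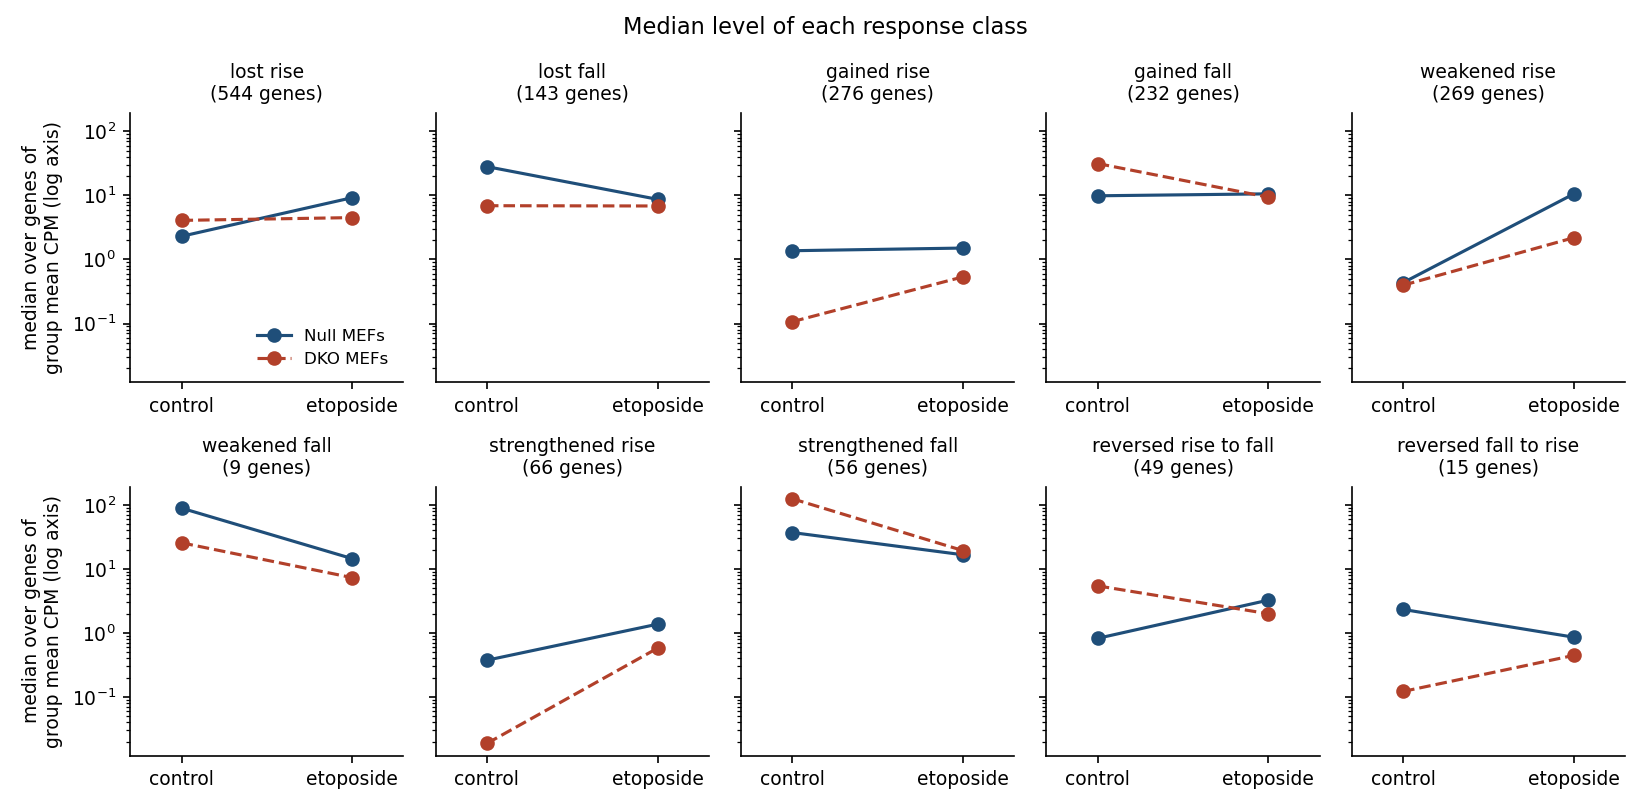
Median over the genes of each class of the group mean level, in CPM on a log axis, in Null MEFs (solid line) and DKO MEFs (dashed line) without and with etoposide. Genes with gained and strengthened falls stand higher in DKO than in Null control libraries, with medians of 31.5 against 9.88 CPM for gained falls, and come close to the Null level after etoposide.

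Promoter sequences were read for the genes that carry these patterns, because the targeted factors and p53 bind known motifs. Windows from 250 bases before to 50 bases after the start of a gene (RefSeq, GRCm38.p6) were available for 11263 of the 15220 genes. The E-box core CACGTG, the same on both strands, stood in 11.2% of these windows. Its share was 10.1% of 395 windows of lost rises, 13.5% of 89 of lost falls, 9.14% of 197 of gained rises and 12.4% of 170 of gained falls. For the classes that kept their direction it was 11.2% of 196 weakened rises, 1 of 6 weakened falls, 11.4% of 44 strengthened rises and 8.82% of 34 strengthened falls. Of genes reversed from rise to fall 2 of 32 windows held it, and of those reversed from fall to rise 2 of 12. The longer form TCACGTGA, which contains the core, stood in 2.01% of all windows and 1.77% of those of lost rises. A pair of p53 half-sites at most 13 bases apart, a motif with ambiguity codes, was found in 6 windows (0.0533%), of which 0 belonged to a class above. The single half-site, looked at after the pairs had been counted, stood in 8.50% of all windows. By class it stood in 13.2% of lost rises, 6.74% of lost falls, 10.2% of gained rises, 15.3% of gained falls, 15.3% of weakened rises, 2.27% of strengthened rises and 11.8% of strengthened falls. In the smaller classes it stood in 4 of 32 genes reversed from rise to fall, 1 of 12 reversed from fall to rise and 0 of 6 weakened falls. A match is a description and not a binding site.

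Among the 74 genes named by rule in this account 56 have a window, and 6 of these hold CACGTG. Shown are Fas (a lost rise), Prkar1b (a gained rise) and Ciart (a weakened fall of the circadian clock), with CACGTG in capitals. Also shown is Cdkn1a, the CDK inhibitor that p53 is best known for, with the matched half-site pair and the bases between in capitals. The windows are chr19:34290409-34290708 on the plus strand (Fas), chr5:139130428-139130727 on the minus strand (Prkar1b), chr3:95882179-95882478 on the minus strand (Ciart) and chr17:29090729-29091028 on the plus strand (Cdkn1a), each written 5′ to 3′ along the gene.
Fas: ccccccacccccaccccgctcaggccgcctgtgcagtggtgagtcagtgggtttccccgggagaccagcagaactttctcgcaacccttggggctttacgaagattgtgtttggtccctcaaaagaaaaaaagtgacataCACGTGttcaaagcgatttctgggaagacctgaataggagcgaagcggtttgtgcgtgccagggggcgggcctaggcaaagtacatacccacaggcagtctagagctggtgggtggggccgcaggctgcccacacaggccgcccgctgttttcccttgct
Prkar1b: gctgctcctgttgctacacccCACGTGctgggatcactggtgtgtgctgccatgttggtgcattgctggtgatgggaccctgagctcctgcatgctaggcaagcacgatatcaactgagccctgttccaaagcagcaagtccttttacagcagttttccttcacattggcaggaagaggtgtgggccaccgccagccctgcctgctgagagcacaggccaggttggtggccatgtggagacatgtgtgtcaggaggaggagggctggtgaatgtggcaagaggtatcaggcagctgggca
Ciart: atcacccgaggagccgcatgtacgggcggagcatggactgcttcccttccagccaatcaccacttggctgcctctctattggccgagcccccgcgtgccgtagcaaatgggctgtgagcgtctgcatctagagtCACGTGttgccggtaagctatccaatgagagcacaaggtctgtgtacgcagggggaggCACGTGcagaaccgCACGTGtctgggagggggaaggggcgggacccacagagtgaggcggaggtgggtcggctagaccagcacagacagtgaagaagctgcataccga
Cdkn1a: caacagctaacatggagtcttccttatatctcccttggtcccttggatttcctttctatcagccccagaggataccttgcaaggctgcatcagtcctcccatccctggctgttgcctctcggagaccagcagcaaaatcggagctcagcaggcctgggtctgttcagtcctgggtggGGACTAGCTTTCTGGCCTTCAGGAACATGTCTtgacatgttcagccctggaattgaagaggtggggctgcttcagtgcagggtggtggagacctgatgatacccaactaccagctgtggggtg
The Ciart window holds the E-box core 3 times and the other windows with the core hold it once. The Prkar1b window follows the RefSeq start and lies inside the GENCODE span of the gene, chr5:139017306-139150001.

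Pmaip1 and Fas, both p53 targets that promote cell death, lost their rise. Pmaip1, which encodes the BH3-only protein Noxa, was measured at 32.4, 33.5 and 27.1 CPM in Null control and 279, 293 and 271 CPM in Null etoposide libraries, and at 213, 214 and 227 CPM in DKO control and 215, 220.3 and 223 CPM in DKO etoposide libraries. The DKO libraries with and without drug overlapped, and all 6 stood far above the Null control libraries. Its log2 fold change was 3.18 in Null and 0.01 in DKO MEFs, an interaction of -3.17 (SE 0.08, adjusted p = 9.95e-15). Fas (chr19:34290666-34327772), a death receptor, was measured at 22.3, 18.8 and 17.8 CPM in Null control and 84.0, 92.1 and 85.7 CPM in Null etoposide libraries, against 39.7, 41.0 and 41.4 and 22.0, 21.9 and 22.4 CPM in DKO control and etoposide libraries. Without overlap in either genotype it rose by 2.15 on the log2 scale in Null MEFs and fell by 0.88 in DKO MEFs, short of the limit for a reversed response. The interaction of Fas was -3.03 (SE 0.09, adjusted p = 4.97e-14).

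Adequate counts here means at least 5 CPM in a group, which Null libraries alone can reach, and over 3 counts in each library. Among genes with adequate counts, wide losses were those of Syt17, Rasl11a, Has3 and Vwa7. Rasl11a (chr5:146845071-146847726), a small GTPase of the Ras family, went from 1.98, 2.00 and 2.58 to 44.1, 44.4 and 49.9 CPM in Null libraries and from 22.7, 21.2 and 19.6 to 24.9, 24.7 and 25.5 CPM in DKO libraries. Its DKO control libraries thus stood between the Null groups, and the interaction was -4.16 (SE 0.12, adjusted p = 2.73e-14). Syt17, a synaptotagmin, went from 0.590, 0.553 and 0.355 to 8.76, 7.87 and 8.79 CPM in Null MEFs and was at 1.40, 1.39 and 1.58 CPM without and 1.17, 1.32 and 0.914 CPM with etoposide in DKO MEFs (interaction -4.44, SE 0.27). Has3, a hyaluronan synthase, and Vwa7, with a von Willebrand factor A domain, were at 0.285 to 0.621 CPM in the 6 control libraries and reached means of 10.8 and 11.5 CPM in Null etoposide libraries against 0.713 and 0.762 CPM in DKO etoposide libraries. Their interactions were -4.12 and -3.82. Exons of Has3 overlap Chtf8 and those of Vwa7 overlap Sapcd1 on the opposite strand. The strand setting of the counting is not given in the sources used here, so reads of such pairs cannot be told apart.

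Other lost rises came from the gene lists. Casp6, an effector caspase, went from 11, 10.2 and 10.1 to 28.3, 27.4 and 29.9 CPM in Null MEFs and from 10.2, 9.59 and 9.92 to 12.7, 12.9 and 12.4 CPM in DKO MEFs. It rose in both without overlap, by 1.45 and 0.35, with an interaction of -1.1 (adjusted p = 8.36e-09). Cryab, a small heat shock protein, was at 15.2, 13.3 and 12.7 and 56.3, 59.2 and 61.8 CPM in Null libraries, and at 20, 20.1 and 19.5 and 16.9, 17.8 and 16.2 CPM in DKO libraries. The transcript rose by 2.10 in Null and fell by 0.23 in DKO MEFs (interaction -2.33), and its exons overlap Hspb2 on the opposite strand. Egln3, an oxygen-sensing prolyl hydroxylase, rose by 2.09 in Null and rose by 0.31 in DKO MEFs, from control means of 2.88 and 3.11 CPM. Osgin1, an oxidative stress gene, rose by 1.31 in Null MEFs and was not past the threshold in DKO MEFs (0.08). Rad51d, a gene of homologous recombination, rose by 1.79 in Null and rose by 0.78 in DKO MEFs, and its interaction of -1.01 was close to the 2-fold limit.

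Lost falls with adequate counts were led by Adm2, Mmp16 and Tspyl4. Tspyl4 (chr10:34297442-34301320), of the TSPY and nucleosome assembly family, was measured at 78.3, 71.8 and 79.6 CPM in Null control and 7.46, 7.51 and 7.03 CPM in Null etoposide libraries, and at 19.0, 18.8 and 20.6 and 15.1, 13.3 and 12.9 CPM in DKO control and etoposide libraries. Null libraries went from above all DKO libraries to below them, while DKO libraries moved little from a lower start. It fell by 3.38 in Null and fell by 0.51 in DKO MEFs, with an interaction of 2.88 (SE 0.09, adjusted p = 1.29e-13), and its exons overlap Gm47512 on the opposite strand. Adm2, a peptide of the calcitonin family, was at 8.93, 7.65 and 9.38 and 1.98, 1.61 and 1.79 CPM in Null and at 0.241, 0.283 and 0.436 and 0.668, 0.656 and 0.427 CPM in DKO MEFs. Mmp16, a membrane-type metalloproteinase, was at 38.4, 37.0 and 35.9 and 5.91, 6.10 and 6.68 CPM in Null and at 0.0752, 0.174 and 0.268 and 0.425, 0.259 and 0.0794 CPM in DKO MEFs. Both were low in DKO control libraries, where a fall could hardly be seen. With etoposide in DKO MEFs Adm2 rose by 0.83 and Mmp16 was not past the threshold (0.34), and their interactions were 3.10 and 2.92. Slc7a11, the cystine transporter subunit, is a lost fall at comparable control levels. It went from 88.5, 83.6 and 91.9 to 32.9, 28.9 and 26.2 CPM in Null MEFs and from 98.3, 94.0 and 98.3 to 83.0, 79.7 and 85.7 CPM in DKO MEFs. It thus fell by 1.58 in Null and fell by 0.23 in DKO MEFs, an interaction of 1.36 (SE 0.08, adjusted p = 4.98e-10).

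Gained rises with adequate counts were led by Extl1, Prkar1b, Nol4l and Angptl6. Extl1, an exostosin-like glycosyltransferase, was at 12.5, 12 and 12.6 CPM and then 8.08, 8.62 and 8.90 CPM in Null MEFs, and at 0.647, 1.1 and 1.26 CPM and then 6.98, 6.54 and 6.80 CPM in DKO MEFs. It fell by 0.54 in Null and rose by 2.75 in DKO MEFs, where the level after the drug approached that of Null MEFs (interaction 3.29, SE 0.17). Angptl6 (chr9:20873808-20879727), an angiopoietin-like secreted protein, was at 1.60, 2.34 and 1.34 and 2.05, 1.79 and 2.13 CPM in Null and at 1.02, 0.956 and 0.990 and 9.41, 10.3 and 9.44 CPM in DKO MEFs. Null libraries overlapped, DKO control libraries lay below them and DKO etoposide libraries far above, with an interaction of 3.12 (SE 0.24, adjusted p = 8.43e-09), and its exons overlap A230050P20Rik on the opposite strand. Prkar1b, a regulatory subunit of protein kinase A whose window with CACGTG is shown above, went from means of 13.7 to 6.96 CPM in Null and from 0.297 to 1.42 CPM in DKO MEFs (interaction 3.21), and it overlaps Gm15672 on the same strand. Nol4l went from 9.87 to 17.0 CPM and from 0.311 to 5.08 CPM (interaction 3.14). Ccnd2, cyclin D2, is a gained rise of an abundant gene, at 47.3, 58.4 and 50 and 58.0, 58.8 and 51.3 CPM in Null and at 41.8, 39.9 and 39.9 and 104, 123 and 90.5 CPM in DKO MEFs. Null libraries overlapped and DKO libraries did not, with log2 fold changes of 0.11 and 1.39 (interaction 1.27, adjusted p = 2.47e-07), and 9330179D12Rik and Gm43126 overlap it on the opposite strand. Rragd, a Rag GTPase of lysosomal amino acid sensing and a known target of TFEB and TFE3, was at means of 4.04 and 7.55 CPM in Null and 0.0937 and 0.798 CPM in DKO MEFs. It rose in both, by 0.90 and 3.03, and stayed lower in DKO MEFs under both conditions.

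Many gained rises start from a trace in DKO control libraries. There were 33 genes with at least 10 CPM in both Null groups and below 2% of the Null control level in DKO control libraries. Their median level in DKO control replicates 1, 2 and 3 was 0.733, 0.702 and 0.816% of the Null control level. After etoposide it was 1.3, 1.46 and 1.23% of the Null etoposide level. The genes were chosen for low values in DKO control libraries, which by itself makes those values the lower ones, so the difference is not evidence of a rise. The source of the traces was not tested. Lama2 and Tenm3, reversed from fall to rise, meet these limits.

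Gained falls with adequate counts were led by Rgs16, Lmcd1 and Col27a1, and of these Rgs16 and Col27a1 stood higher in DKO than in Null control libraries. Rgs16, which switches off G protein signals, was measured at 5.54, 6.29 and 5.05 and 5.28, 4.66 and 4.81 CPM in Null control and etoposide libraries, and at 37.0, 37.9 and 35.6 and 1.32, 1.08 and 1.83 CPM in DKO control and etoposide libraries. Null libraries overlapped, while DKO libraries fell from well above to well below the Null level, a log2 value of -4.66 (interaction -4.47, SE 0.17, adjusted p = 7.71e-13). Exons of Rgs16 overlap Gm28513 on the opposite strand. Lmcd1, a LIM domain protein, was at 9.50, 9.47 and 9.50 and 12.4, 11.2 and 13.5 CPM in Null and at 7.05, 7 and 7.40 and 0.587, 0.833 and 0.457 CPM in DKO MEFs, so that it rose by 0.37 in the former and fell by 3.54 in the latter (interaction -3.92). Col27a1, a fibrillar collagen, rose by 0.81 in Null and fell by 2.7 in DKO MEFs, where its control mean was 55.3 CPM against 9.47 CPM. The growth factor gene Tgfb2 was at 20.6, 18.9 and 20.9 CPM and then 10.0, 10.4 and 9.98 CPM in Null MEFs, and at 64.6, 66.2 and 65.6 CPM and then 6.96, 5.59 and 5.22 CPM in DKO MEFs. It fell by 0.99 in Null MEFs, just short of the limit, and fell by 3.5 in DKO MEFs, without overlap in either, and its exons overlap Gm29491 on the opposite strand. Nr4a1, an orphan nuclear receptor of the immediate early response, was at 28.9, 29.6 and 25.7 and 27.7, 27.9 and 32.6 CPM in Null and at 75.2, 83.8 and 66.8 and 16.5, 9.67 and 9.65 CPM in DKO MEFs. DKO etoposide replicate 1 was higher than the other 2, yet all 3 lay below every other library (interaction -2.77, SE 0.19).

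Reversed genes moved in opposite directions in Null and DKO MEFs. Plau (chr14:20836660-20843385), the urokinase protease of the cell surface, went from 42.2, 39.5 and 40.6 to 176, 174 and 175 CPM in Null MEFs and from 115, 109.7 and 115 to 40.3, 39.1 and 38.0 CPM in DKO MEFs. The DKO etoposide libraries came to the level of the Null control libraries, and it rose by 2.10 in Null and fell by 1.54 in DKO MEFs (interaction -3.64, SE 0.05, adjusted p = 1.24e-17). Thbs2, a matricellular thrombospondin, was at 4.24, 3.23 and 3.46 and 23.7, 25.1 and 21.8 CPM in Null and at 61.0, 64.1 and 71.6 and 24.5, 25.7 and 24.7 CPM in DKO MEFs. After the drug both genotypes stood at about the same level, reached from opposite sides (interaction -4.07, adjusted p = 3.02e-14). Mitf, of the same factor family as TFEB and TFE3, was measured at 8.63, 9.14 and 8.94 and 23.2, 22.6 and 22.3 CPM in Null libraries and at 42.9, 42.5 and 44.4 and 14.6, 13.1 and 14.2 CPM in DKO libraries. Mitf rose by 1.35 in Null and fell by 1.63 in DKO MEFs, an interaction of -2.98 (SE 0.08, adjusted p = 1.02e-14). The rule for named genes also chose Krt7, a keratin, and Sfrp2, a secreted Wnt antagonist. Krt7 rose by 4.35 in Null and fell by 1.35 in DKO MEFs, and Sfrp2 rose by 2.7 and fell by 1.74, from control means of 0.560 and 1.06 CPM in Null and 5.44 and 4.83 CPM in DKO MEFs. Exons of Krt7 overlap Gm671 and those of Sfrp2 overlap Gm26771, both on the opposite strand.

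In the other direction, Dusp4, Lama2 and Tenm3 fell in Null MEFs and rose in DKO MEFs. Lama2, the laminin alpha-2 chain, went from 44.7, 42.2 and 44.4 to 18.3, 17.7 and 16.8 CPM in Null and from 0.226, 0.315 and 0.319 to 1.88, 1.13 and 1.09 CPM in DKO MEFs. Dusp4, a MAP kinase phosphatase, went from 22.8, 17.5 and 19.5 to 10.51, 8.50 and 10.46 CPM and from 0.0903, 0.152 and 0.101 to 0.850, 1.27 and 0.695 CPM. Tenm3, a teneurin adhesion protein, went from 29.1, 30.6 and 32.7 to 14.9, 14.7 and 13.2 CPM and from 0.226, 0.0652 and 0.168 to 0.425, 0.888 and 0.566 CPM. DKO libraries held these transcripts at a small share of the Null level under either condition, so the reversal is one of trace amounts. The interactions were 3.46 for Lama2, 3.96 for Dusp4 and 3.26 for Tenm3, and Lama2 and Tenm3 overlap Gm48084 and Gm19744 on the opposite strand.

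Some genes of these classes are abundant and fall outside the rule, and the following were chosen after their values were seen. Gas1, a growth arrest-specific membrane protein, went from 68.5, 64.9 and 68.3 to 317, 273 and 315 CPM in Null and from 146, 148 and 136 to 44.7, 44.4 and 40.8 CPM in DKO MEFs (interaction -3.90). Sox4, a transcription factor, went from 95.6, 91.7 and 96.1 to 254, 238 and 268 CPM in Null and from 251, 256 and 237 to 79.5, 73.0 and 75.4 CPM in DKO MEFs (interaction -3.13). Both are reversed, with DKO etoposide libraries below all others. Vim went from means of 2390.3 to 1632 CPM in Null and from 2696 to 801 CPM in DKO MEFs, a gained fall of the leading fibroblast marker (interaction -1.2). Ptgs2, the inducible cyclooxygenase, fell by 0.62 in Null and fell by 2.39 in DKO MEFs from control means of 521 and 2300.4 CPM. The mismatch repair gene Msh6 rose by 1.55 in Null and rose by 0.53 in DKO MEFs, a lost rise from control means of 168 and 188 CPM.

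Weakened rises with adequate counts were led by Evpl, Glyat and Krt13. Evpl (chr11:116220559-116238077), the cornified envelope protein envoplakin, went from 0.393, 0.292 and 0.216 to 88.5, 77.7 and 81.9 CPM in Null and from 0.406, 0.337 and 0.252 to 2.45, 1.45 and 2.19 CPM in DKO MEFs. Control levels overlapped between the genotypes and etoposide levels were far apart, with an interaction of -5.49 (SE 0.46, adjusted p = 2.04e-08). Glyat, a glycine acyltransferase, rose by 7.93 in Null and rose by 2.61 in DKO MEFs, to means of 27.0 and 0.526 CPM. Its control means were 0.108 and 0.0876 CPM, so both folds rest on few control reads, and its interaction had an SE of 0.75. Krt13, a keratin, rose by 6.41 and rose by 1.91, to means of 29.6 and 4.35 CPM. Few falls were weakened, and the 9 genes included Ciart, Zfpm2 and Gpr176. Ciart, a repressor in the circadian clock whose window with 3 E-box cores is shown above, went from 34.6, 32.7 and 35.6 to 3.06, 2.45 and 2.65 CPM in Null and from 23.6, 27.4 and 25.8 to 6.76, 5.72 and 6.04 CPM in DKO MEFs (interaction 1.59, SE 0.12). The GATA cofactor Zfpm2 fell by 2.75 in Null and fell by 1.2 in DKO MEFs, and the orphan receptor Gpr176, which Gm29232 overlaps on the same strand, fell by 2.53 and fell by 1.26.

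Named strengthened falls were Adamts1, Ccl7, Trib2, F3 and Insig1. Adamts1, a secreted metalloproteinase, went from 113, 104 and 100.2 to 45.3, 45.3 and 46.4 CPM in Null and from 352, 337 and 295 to 26.1, 19.8 and 22.3 CPM in DKO MEFs. DKO libraries thus went from above to below the Null libraries, with an interaction of -2.65 (SE 0.11, adjusted p = 2.3e-12). Ccl7, a monocyte chemokine, fell by 1.39 in Null and fell by 3.71 in DKO MEFs, and Trib2, a pseudokinase, fell by 1.01 and fell by 3.29. F3, tissue factor, went from 93.4, 93.7 and 81.3 to 38.0, 37.8 and 38.3 CPM in Null and from 290.0, 278 and 265 to 40.1, 36.4 and 37.6 CPM in DKO MEFs, where etoposide libraries of both genotypes overlapped (interaction -1.63). Strengthened rises with adequate counts were led by Rhbdl3, Ptpn7 and Nrip3, at DKO control means of 0.121, 0.107 and 0.346 CPM. Each rose more in DKO MEFs on the log2 scale, by interactions of 2.73, 2.36 and 1.27, yet stayed below its Null level in every library of the same condition.

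**Figure D3:**
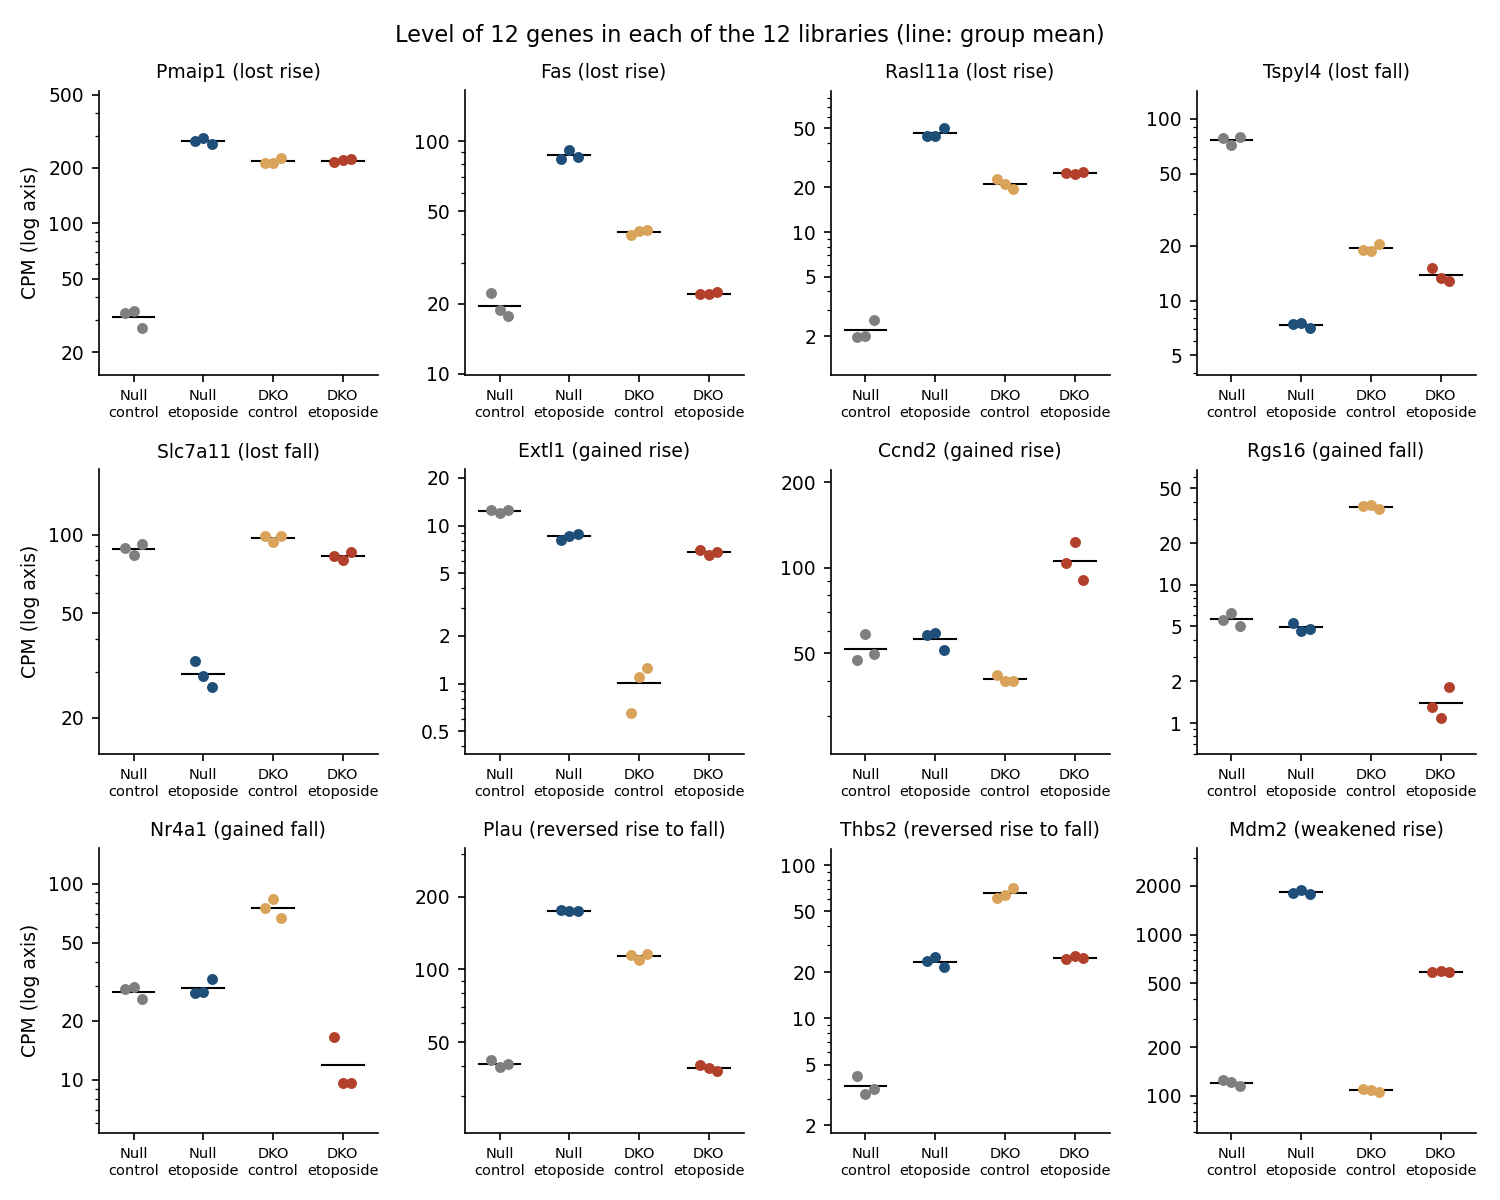
Level in CPM (log axis, scaled per gene) of 12 named genes in each of the 12 libraries, with the class of the gene in its title and a line at the group mean. Pmaip1 stands at 213 to 227 CPM in DKO libraries with and without etoposide, and Plau rises in Null libraries and falls in DKO libraries.

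The lists below describe pathways by the interaction of their members, to be read against 29.6% above and 24.4% below 0 and a median of 0.05 among all genes tested. A change of scaling shifts every gene by about the same amount, so counts under another scaling are to be read against all genes under that scaling: 5734 above and 3055 below of 15220 (median 0.15) with library size alone, and 3797 above and 4192 below (median -0.02) with DESeq2 size factors. Of 53 p53 targets 5 were called above and 36 below 0, with a median of -0.49. By role, 6 of 8 feedback genes, 7 of 8 arrest genes, 12 of 14 apoptosis genes, 3 of 9 repair genes and 8 of 14 metabolism and autophagy genes were called below 0. The medians were -0.61, -0.62, -0.91, -0.03 and -0.38, and that of the repair genes was 0.07 with library size alone. The median response of the list was 1.18 in Null and 0.62 in DKO MEFs, and 7 of the 53 were lost responses with 0 gained and 0 reversed, against 687, 508 and 64 of all 15220 genes. Mdm2 went from 126, 122 and 115 to 1814, 1897 and 1791 CPM in Null and from 111, 109 and 106 to 586, 595 and 585 CPM in DKO MEFs, a rise in both that was weaker in the latter. Cdkn1a went from 71.5, 65.6 and 60.1 to 498, 511 and 510.0 CPM and from 38.4, 39.8 and 40.7 to 242, 254 and 227 CPM. Its rise of 2.94 in Null and 2.60 in DKO MEFs gave an interaction of only -0.34 (SE 0.07, adjusted p = 0.000826), with DKO libraries lower than Null libraries of the same condition throughout, and AC167363.2 overlaps it on the opposite strand. Eda2r, Ddb2, Xpc and Trp53 itself, chosen after their values were seen, were not past the threshold, at -0.06, -0.03, -0.04 and -0.02.

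DNA damage genes that are not p53 targets had smaller medians. Of 26 sensing and checkpoint genes 10 were above and 5 below 0 (median 0.13), and of 40 double-strand break repair genes 14 were above and 10 below (median 0.04), 18 and 6 with library size alone, and 12 and 13 with DESeq2 size factors (median -0.02). H2afx, the histone variant phosphorylated at breaks, went from 509, 529.7 and 547 to 396, 395 and 408 CPM in Null and from 543, 566 and 487 to 668, 676 and 675 CPM in DKO MEFs. It fell by 0.40 in Null and rose by 0.34 in DKO MEFs, opposite directions below the 2-fold limit, and its exons overlap Gm44335 on the opposite strand. Chek2, a checkpoint kinase, and Xrcc3, a recombination gene, rose in both genotypes with interactions of -0.90 and -0.98, and Klc1 overlaps Xrcc3 on the opposite strand. The role with the highest median was end joining, where 6 of 11 genes were above and 2 below 0 (median 0.22).

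Genes of the lysosome, where TFEB and TFE3 are best known, were called on both sides of 0. Of 67 lysosomal and autophagy genes 18 were above and 25 below 0, with a median of -0.07. With library size alone 27 were above and 19 below (median 0.04), and with DESeq2 size factors 13 and 30 (median -0.13), a shift like that of all genes. Hydrolases leaned below 0, with 12 of 23 called there and 4 above (median -0.15), and autophagy genes above, with 11 of 21 (6 below, median 0.14). Autophagy genes had 12 above and 5 below with library size alone, and 9 and 8 with DESeq2 size factors (median 0.08). At 2-fold or more, 0 of them were above and 3 below 0. Atg9b, an autophagy membrane protein, went from 0.528, 0.538 and 0.494 to 82.0, 73.2 and 63.9 CPM in Null and from 0.587, 0.511 and 0.403 to 11.6, 9.37 and 8.76 CPM in DKO MEFs, a steep rise in both and a weakened one in DKO MEFs (interaction -2.86, SE 0.37). Exons of Atg9b overlap Nos3 on the opposite strand. Ctsf, cathepsin F, went from 2.77, 2.83 and 2.29 to 48.2, 46.9 and 52.0 CPM and from 2.15, 2.04 and 1.68 to 8.20, 8.85 and 8.01 CPM (interaction -2.14). Ulk1, Wipi1, Tpp1 and Scarb2, chosen after their values were seen, lost their rise in DKO MEFs with interactions of -1.59, -1.57, -1.07 and -1.05. For the 13 V-ATPase genes, the median response was 0.03 in both genotypes, with 2 interactions above and 4 below 0, 6 and 2 with library size alone, and 0 and 6 with DESeq2 size factors. Of 11 tested MiT/TFE factors and nutrient-sensing targets 6 were above and 2 below 0 (median 0.27).

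Immediate early genes, which growth factors and stress switch on within minutes, were mostly below 0. Of 43 genes 6 were above and 28 below (median -0.75). All 9 AP-1 genes were called, 2 above and 7 below (median -1.36), and of 20 EGR, IER and KLF genes 14 were below and 0 above, or 1 above with library size alone. The median response of AP-1 genes was 0.60 in Null and -0.67 in DKO MEFs. Jun and Fos are examples, chosen after their values were seen: Jun went from 141, 142 and 130.2 to 358, 361 and 359 CPM in Null and from 219.6, 235 and 205 to 182, 169 and 163 CPM in DKO MEFs. Fos went from 28.9, 25.6 and 20 to 83.8, 91.1 and 93.2 CPM in Null and from 29.5, 29.9 and 23.8 to 43.9, 38.0 and 35.4 CPM in DKO MEFs, so that Jun fell by 0.36 and Fos rose by 0.48 in DKO MEFs, both lost rises. Dusp4 and Nr4a1, described above, are the members farthest from 0.

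Cytokine and chemokine genes showed a like pattern. In the list of 43 tested NF-kB, cytokine and chemokine genes 6 were above and 26 below 0 (median -0.55, or -0.60 without the 1 gene with a group at the floor). Chemokines had 1 above and 8 below of 11 (median -1.06), and cytokines 1 above and 12 below of 18 (median -0.78). For NF-kB subunits and feedback genes 4 of 14 were above and 6 below, at a median of -0.02 (0.09 with library size alone). Ccl2 and Cxcl1, chosen after their values were seen, are examples: Ccl2 fell by 1.24 in Null and fell by 3.18 in DKO MEFs, and Cxcl1 rose by 0.59 and fell by 1.63. Of 33 interferon-stimulated and antigen presentation genes 15 were above and 9 below (median 0.12), 17 and 5 with library size alone, and 13 and 11 with DESeq2 size factors. Interferon-stimulated genes alone leaned above 0, with 13 of 23 above and 6 below (median 0.22), and antigen presentation genes had 2 above and 3 below of 10, 4 and 2 with library size alone, and 2 and 4 with DESeq2 size factors. Irf1, an interferon-regulated transcription factor, rose by 0.59 in Null and fell by 0.26 in DKO MEFs, and Gm17334 overlaps it on the opposite strand. Tap1, the peptide transporter, went from 47.5, 43.0 and 47.0 to 255, 247 and 259 CPM in Null and from 44.9, 41.0 and 43.3 to 106, 111 and 107 CPM in DKO MEFs, a weakened rise (interaction -1.14), with Psmb9 on the opposite strand.

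Death genes outside the p53 list had 6 of 31 above and 13 below 0 (median -0.20). Besides Casp6, the named member was Mlkl, the effector of necroptosis, which rose by 1.31 in Null and rose by 0.33 in DKO MEFs (interaction -0.98, SE 0.06). The BCL2 family, without the p53 targets of its name, had 3 of 11 above and 4 below (median -0.06, or 0.04 with library size alone).

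The integrated stress and unfolded protein response leaned above 0, with 25 of 38 genes above and 7 below (median 0.43), 27 and 3 with library size alone, and 23 and 7 with DESeq2 size factors. In its ATF4 branch, genes of amino acid supply that the factor ATF4 switches on, 18 of 20 genes were above and 0 below (median 0.92). Under library size alone 19 and under DESeq2 size factors 16 were above, and 0 were below in each. The branch had a median response of -0.96 in Null and -0.13 in DKO MEFs. Vldlr, a lipoprotein receptor, went from 41.2, 39.9 and 42.1 to 25.3, 25.6 and 22.4 CPM in Null and from 56.8, 56.9 and 61.3 to 85.6, 84.8 and 85.8 CPM in DKO MEFs, a fall in the former and a rise in the latter (interaction 1.3, SE 0.07, adjusted p = 5.72e-11). Asns, Psat1 and Mthfd2, enzymes of asparagine, serine and folate metabolism chosen after their values were seen, had interactions of 1.01, 1.07 and 1.09. Genes of the ER branch were split, with 7 above and 7 below of 18 (median 0.00), 8 and 3 with library size alone (median 0.11), and 7 and 7 with DESeq2 size factors (median -0.06). Atf4 itself fell by 1.22 in Null and fell by 1.01 in DKO MEFs.

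Other stress and metabolic lists follow. Of 20 heat shock genes 8 were above and 5 below 0 (median 0.19). Dnajb4, a chaperone of the DNAJ family, rose by 0.38 in Null and fell by 1.18 in DKO MEFs, from control means of 43.5 and 130.2 CPM to 56.7 and 57.3 CPM. NRF2 targets had 3 above and 7 below of 22 (median -0.05), 7 and 6 with library size alone (median 0.06), and 3 and 11 with DESeq2 size factors. Sterol and fatty acid synthesis genes had median responses of -1.44 in Null and -1.5 in DKO MEFs, with 10 above and 11 below of 28 and a median interaction of 0.00. With library size alone the counts were 11 and 9, and with DESeq2 size factors 4 and 13 (median -0.06). Insig1, a sterol sensor, went from 184, 167 and 167 to 59.6, 64.0 and 67.9 CPM in Null and from 367, 356 and 351 to 59.1, 51.1 and 53.8 CPM in DKO MEFs, a strengthened fall (interaction -1.27), while Acaca, acetyl-CoA carboxylase, fell by 1.71 in Null and fell by 0.86 in DKO MEFs (interaction 0.85). Glycolysis and hypoxia genes had 12 above and 7 below of 27 (median 0.26), among them Pdk1, pyruvate dehydrogenase kinase, which fell by 0.62 in Null and rose by 0.81 in DKO MEFs.

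Cell cycle genes had medians near that of all genes under each scaling. G2 and mitosis genes had 10 above and 9 below of 35 (median -0.00), 15 and 8 with library size alone (median 0.10), and 6 and 14 with DESeq2 size factors (median -0.07). G1/S and replication genes had 17 above and 15 below of 54 (median 0.01), 25 and 11 with library size alone, and 15 and 17 with DESeq2 size factors (median -0.05). Cenpe, a kinetochore motor, went from 175, 179 and 164 to 209, 215 and 195 CPM in Null and from 163, 158 and 159 to 96.6, 93.5 and 97.1 CPM in DKO MEFs, so that it rose by 0.26 in Null and fell by 0.74 in DKO MEFs. Bub1b, a spindle checkpoint kinase, fell by 0.42 in Null and fell by 1.06 in DKO MEFs. The CDK inhibitor Cdkn2b went from 87.1, 81.3 and 87.2 to 62.8, 64.5 and 69.3 CPM in Null and from 71.8, 65.8 and 66.4 to 23.2, 20 and 21.7 CPM in DKO MEFs, a gained fall (interaction -1.28, SE 0.08, adjusted p = 3.08e-10).

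Replication-dependent histone genes form compact families of near-identical copies. Counts of histone and of ribosomal protein genes are uncertain where reads match several places in the genome. Replication-dependent histones had median responses of -1.33 in Null and -1.02 in DKO MEFs, with 21 above and 0 below of 55 tested (median 0.28). Under DESeq2 size factors 16 and under library size alone 26 were above, with 0 below in each. Hist1h3c went from 172, 199 and 283 to 69.2, 57.2 and 73.5 CPM in Null and from 152, 229 and 205 to 117, 145 and 155 CPM in DKO MEFs, where the groups overlapped (interaction 1.22, adjusted p = 0.00022). Hist1h3i had an interaction of 0.80 (adjusted p = 0.0214) and lost its call in 8 of 22 alternatives. Cytosolic ribosomal protein genes had 6 above and 3 below of 51 (median -0.00), 13 and 0 with library size alone (median 0.10) and 5 and 12 with DESeq2 size factors (median -0.07), medians that moved with those of all genes. Rpl5 went from 839.6, 488 and 591 to 939, 996 and 975 CPM in Null and from 895, 819 and 871 to 895, 942 and 994 CPM in DKO MEFs, with a wide spread in Null control libraries, and its interaction of -0.47 lost its call in 9 of 22 alternatives and ranged from -0.72 to -0.30 with 1 library left out. Rpl15 rose by 0.28 in Null and rose by 0.75 in DKO MEFs. Snord21 overlaps Rpl5 on the same strand, and Fam69a and Nkiras1 overlap Rpl5 and Rpl15 on the opposite strand.

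Matrix genes had 14 above and 16 below of 49 (median -0.04), 18 and 13 with library size alone (median 0.07), and 10 and 19 with DESeq2 size factors. Thbs2 and Plau, described above, are the named members. Collagens had median responses of -0.86 in Null and -0.73 in DKO MEFs. Contractile, SRF and YAP targets together had 3 above and 11 below of 26 (median -0.10), 5 and 11 with library size alone (median 0.00), and 1 and 14 with DESeq2 size factors. Contractile and SRF targets had 1 above and 5 below of 15 (median -0.08, or 0.02 with library size alone), and YAP/TEAD targets 2 above and 6 below of 11 (median -0.46). Cyr61, a matricellular YAP target, went from 814, 863 and 753 to 1353, 1436 and 1445 CPM in Null and from 1657, 1522 and 1293 to 738, 754 and 696 CPM in DKO MEFs, opposite changes without overlap (interaction -1.83, SE 0.10, adjusted p = 5.74e-11).

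Clock genes were called in most cases, 5 above and 11 below of 19 (median -0.56). Dbp, an output factor of the clock, went from 3.04, 3.66 and 3.72 to 3.60, 4.59 and 3.65 CPM in Null and from 17.8, 18 and 17.0 to 3.40, 3.54 and 3.27 CPM in DKO MEFs. Its Null libraries overlapped between conditions while DKO libraries fell to the Null level (interaction -2.58), and Sphk2 overlaps it on the opposite strand. Nr1d1, a repressor of Arntl, went from 6.11, 7.21 and 5.33 to 20.4, 16.8 and 17.0 CPM and from 12.3, 12.5 and 11.3 to 9.21, 9.16 and 7.89 CPM (interaction -2.02), and Thra overlaps it on the opposite strand. Arntl, Cry1 and Cry2, chosen after their values were seen, had interactions of 0.68, 0.81 and 0.97, above 0. The phase of the clock at sampling was not measured.

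**Figure D4:**
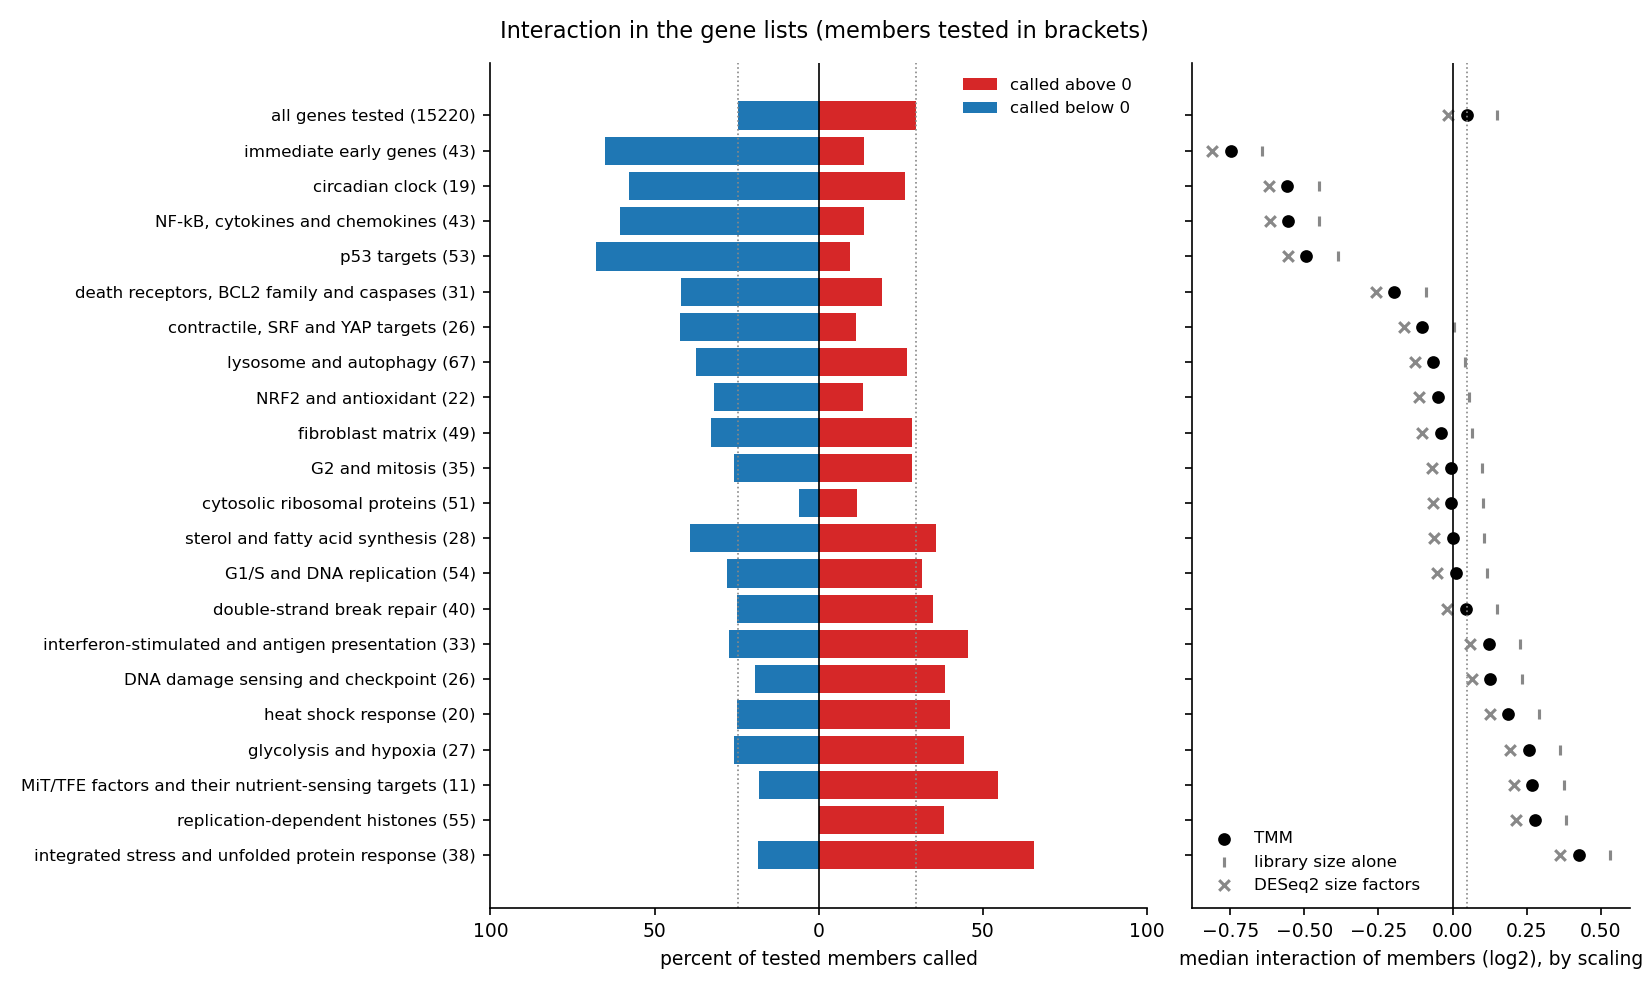
Left, percent of the tested members of each list called above 0 (right bars) and below 0 (left bars), with dotted lines at the shares of all genes; right, median interaction under TMM (circles), library size alone (bars) and DESeq2 size factors (crosses). Immediate early genes have the lowest median, -0.75, and the integrated stress and unfolded protein response the highest, 0.43.

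Across all genes with at least 5 CPM in a group, the median DKO response was nearer 0 than the median Null response for rises over 0.5 and for falls. The 1028 genes with a Null log2 fold change from 0.5 to 1 had medians of 0.69 in Null and 0.42 in DKO MEFs, and the 1796 genes from -1 to -0.5 had -0.70 and -0.43. Of the 656 genes from 1 to 2, the median was 1.33 in Null and 0.60 in DKO MEFs. For 306 genes from 2 to 4 the medians were 2.62 and 1.23, and for 165 genes above 4 they were 5.55 and 3.59. Falls past 2-fold were closer between the lines than rises past 2-fold. The 958 genes from -2 to -1 had medians of -1.27 in Null and -0.98 in DKO MEFs, and the 114 genes below -2 had -2.28 and -2.05. Genes were binned by their measured Null response, so its error adds to the gap. Where the responses correlate below 1 (Pearson 0.75 for these genes), such bins can by themselves bring the DKO medians nearer 0. A gene can also pass the limit of 5 CPM in Null etoposide libraries alone. The gap is therefore a description and not evidence of a weaker response in DKO MEFs.

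Gene length also went with the response. Of 10 groups of 1415 genes by length, the shortest had median responses of 0.16 in Null and 0.21 in DKO MEFs, and the longest -0.42 and -0.30, so the fall of long genes was present in both lines. The median interaction was 0.04 in the shortest group and 0.14 in the longest, and with library size alone 0.14 and 0.24. Interactions of at least 2-fold above 0 were called for 9.89% of the longest and 3.46% of the shortest group, and those below 0 for 10.7% and 8.55%. Lost falls had a median length of 75.7 kb against 24.1 kb for all genes with a length, and lost rises 20.1 kb. Weakened falls stood at 72.5 kb, strengthened rises at 51.4 kb, gained rises at 31.9 kb and gained falls at 29.0 kb. For weakened rises the median was 21.9 kb, for strengthened falls 27.1 kb and for genes reversed from rise to fall 30.1 kb. The 15 genes reversed from fall to rise were long, with a median of 258 kb. The share of counted reads on no feature, which can include introns, was 22.5 to 24.2% in Null control, 25.1 to 27.3% in Null etoposide, 20.2 to 21.1% in DKO control and 21.2 to 22.3% in DKO etoposide libraries. Its part in these differences was not tested.

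**Figure D5:**
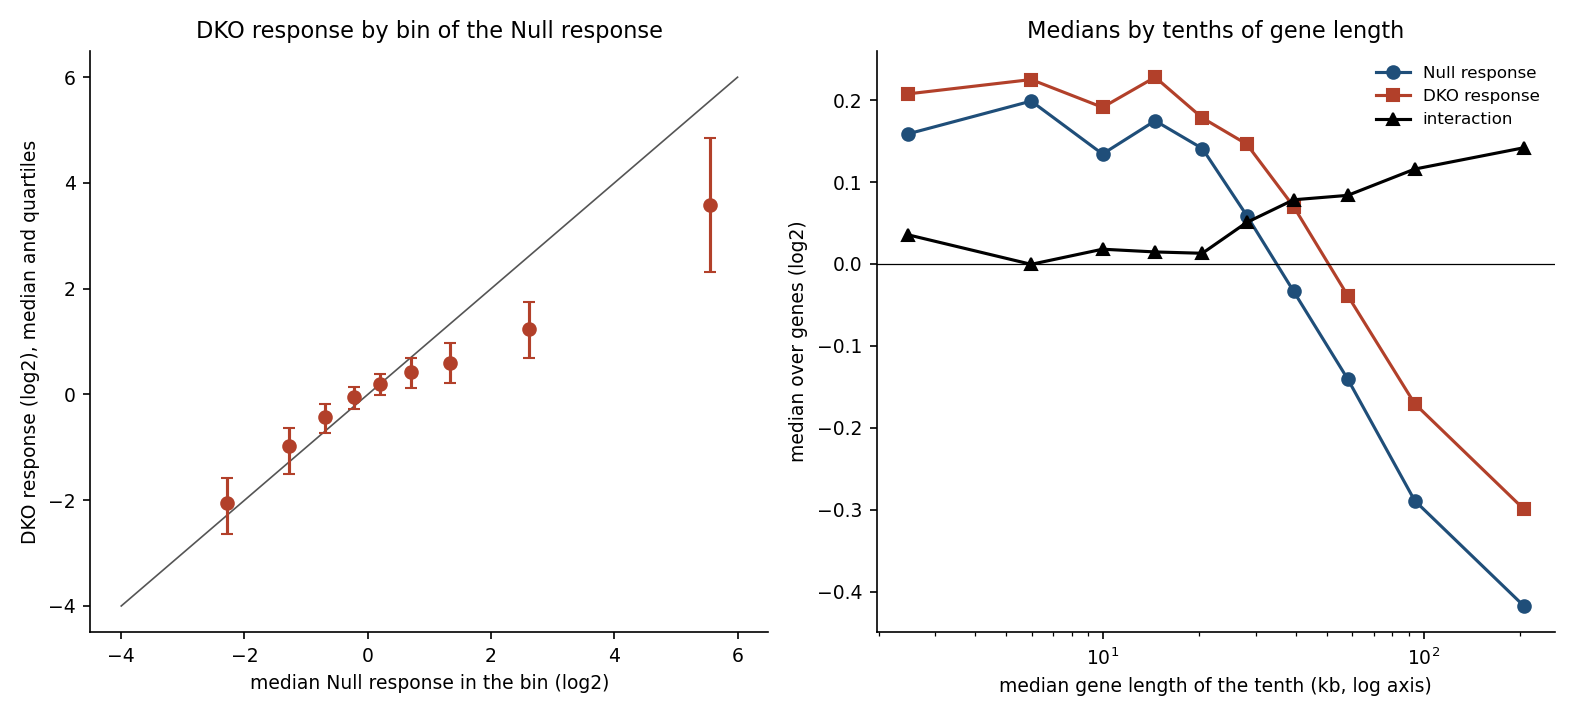
Left, median DKO response with quartiles against the median Null response (both log2) in 9 bins of genes with at least 5 CPM, with the diagonal of equal response; right, median Null response, DKO response and interaction (log2) against the median gene length (kb, log axis) of 10 equal groups of genes. The DKO medians fall short of the diagonal for rises, with 1.23 against 2.62 in the bin from 2 to 4, and the interaction is 0.14 in the longest group. Bins are set by the Null response, which by itself can bring the DKO medians nearer 0.

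What these values can show is limited by the design. Each genotype is 1 line, 1 dose and 1 time were sampled, and whether the replicates are separate cultures is not stated. A log2 difference between the lines depends on the level each line starts from, and for transcripts near the floor it rests on few reads. In bulk samples fewer cells of a type and less RNA per cell cannot be told apart. Counts say nothing of absolute RNA content, and the zero of the interaction moves with the scaling. Protein, survival and binding were not measured in these libraries.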

How the data were processed

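The 12 libraries are total RNA depleted of ribosomal RNA, from a stranded kit. The deposited values are whole counts of read pairs per gene symbol, which the authors made with FastQC, Cutadapt where required, HISAT2 and a gene counter, on GENCODE annotation per the methods and mm10 per the labels. The labels name featureCounts and the methods HTSeq, the 5 summary lines of the table carry HTSeq's names, and neither versions nor the strand setting are given. Genes held 53.4 to 63.1% of a library, and only they entered library sizes. The summary line for no feature held 20.2 to 27.3%, that for alignments not unique 15.9 to 20.5%, and that for ambiguous pairs 0.428 to 0.513%. Coordinates were joined by symbol: 23350 of 24421 matched GENCODE release 21 directly, 660 through a synonym and 411 not.

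Genes kept by filterByExpr were scaled by TMM (factors 0.884 to 1.09) and fitted in edgeR 4.0.16 (R 4.3.3) with 1 model of the 4 groups and the quasi-likelihood test, Benjamini-Hochberg adjusted over 15220 genes, with a threshold of 0.05. A library of this depth shows 3 counts, the floor used here, at 0.0298 to 0.0607 CPM. Replicates differed by 10.8 to 22.6 times the variance of sampling alone. Functions were tested on simulated data. Alternatives used limma 3.58.1, DESeq2 1.42.0, other scaling, filters, depth, dispersions, limits and each library left out.

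Named by rule were Tfeb and Tfe3; the 3 genes of each class (5 for lost rises, 4 for gained rises) with the interaction farthest from 0 among those with at least 5 CPM in a group, over 3 counts in each library, no overlap of etoposide and control libraries where the gene responds, and no predicted, date-like or repeated symbol; the 2 members of each of 21 lists farthest from 0 among called genes with at least 5 CPM in a group; and Mdm2 and Cdkn1a. Of these, 2 genes are not reported here. Members and lists were chosen with earlier results of these data known. No list was tested as a set.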

Additional observations from a re-analysis of the deposited data

Results flagged for a closer look

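The interaction test set apart 8226 of all genes tested, 1919 of them at 2-fold or more. The 74 named genes are among the 8226, and for all but Tfeb, Tfe3, Mdm2 and Cdkn1a this was a condition of being named. Their interactions on the log2 scale are given by class. Among lost rises they were -4.44 for Syt17, -4.16 for Rasl11a, -4.12 for Has3, -3.82 for Vwa7, -3.17 for Pmaip1, -3.03 for Fas, -2.33 for Cryab, -2.02 for Nr1d1, -1.78 for Egln3, -1.23 for Osgin1, -1.1 for Casp6 and -1.01 for Rad51d. Lost falls had 1.22 for Hist1h3c, 1.36 for Slc7a11, 2.88 for Tspyl4, 2.92 for Mmp16 and 3.10 for Adm2. For gained rises the values were 1.27 for Ccnd2, 2.13 for Rragd, 3.12 for Angptl6, 3.14 for Nol4l, 3.21 for Prkar1b and 3.29 for Extl1. Gained falls had -4.47 for Rgs16, -3.92 for Lmcd1, -3.5 for Col27a1, -2.77 for Nr4a1, -2.58 for Dbp, -2.51 for Tgfb2, -1.83 for Cyr61, -1.56 for Dnajb4 and -1.28 for Cdkn2b. Rises weakened in DKO MEFs had -5.49 for Evpl, -5.33 for Glyat, -4.51 for Krt13, -2.86 for Atg9b, -2.14 for Ctsf, -1.48 for Mdm2 and -1.14 for Tap1. Weakened falls had 1.27 for Gpr176, 1.55 for Zfpm2 and 1.59 for Ciart. Strengthened rises had 1.27 for Nrip3, 2.36 for Ptpn7 and 2.73 for Rhbdl3. Falls strengthened in DKO MEFs had -2.65 for Adamts1, -2.32 for Ccl7, -2.28 for Trib2, -1.63 for F3 and -1.27 for Insig1. Genes reversed from rise to fall had -5.70 for Krt7, -4.44 for Sfrp2, -4.07 for Thbs2, -3.64 for Plau and -2.98 for Mitf. Those reversed from fall to rise had 3.26 for Tenm3, 3.46 for Lama2 and 3.96 for Dusp4. Genes with an interaction of at least 2-fold and no response of that size in either genotype had -1.0 for Cenpe, 1.3 for Vldlr and 1.43 for Pdk1. Interactions under 2-fold were -0.98 for Xrcc3, -0.98 for Mlkl, -0.90 for Chek2, -0.85 for Irf1, -0.64 for Bub1b, -0.47 for Rpl5, -0.34 for Cdkn1a, 0.28 for Tfe3, 0.46 for Rpl15, 0.49 for Tfeb, 0.74 for H2afx, 0.80 for Hist1h3i and 0.85 for Acaca.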

How the results depend on the processing

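The legacy fit, the level of at least 5 CPM and the limit of over 3 counts in each library were chosen after seeing the data. Class and interaction counts that moved most were these. Weakened rises numbered 584 with limma-trend (269 in the main analysis), and strengthened falls 29 with library size alone (56). Asking for a mean of at least 1 CPM left 369 interactions of at least 2-fold above 0 (639), 95 lost falls (143), 133 gained rises (276), 29 strengthened rises (66) and 6 reversals from fall to rise (15). The legacy quasi-likelihood fit gave 100 strengthened rises.

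A response limit of 1.5-fold gave 19 weakened falls (9), 92 strengthened falls, 132 reversals from rise to fall (49), 69 from fall to rise, and 31 genes that respond in neither genotype (260). A limit of 3-fold gave 56 lost falls, 174 weakened rises, 2 weakened falls, 33 strengthened rises, 16 strengthened falls, 9 reversals from rise to fall, 0 from fall to rise, and 698 genes that respond in neither. At 5 CPM or more in a group there were 327 lost rises (544), 83 gained rises, 10 strengthened rises, 29 reversals from rise to fall and 6 from fall to rise, and 732 lost, gained or reversed genes (1259). With over 3 counts in each library there were 140 gained rises, 14 strengthened rises and 9 reversals from fall to rise. With 1 library left out, strengthened rises ranged from 37 (without DKO control replicate 2) to 61 (without DKO etoposide replicate 3), against 66 with all 12.

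Of 1628 pairs of a named gene and an alternative, 1609 kept sign and call, 19 lost the call (Rpl5 9, Hist1h3i 8, Tfeb 2) and 0 changed sign. Of the 1259 lost, gained and reversed genes 553 (43.9%) kept their class in all 22 refits: 255 lost rises, 67 lost falls, 86 gained rises, 128 gained falls, 16 reversals from rise to fall and 1 from fall to rise. The class was kept by 66.9% with at least 1 CPM, where 358 genes were not tested, by 77.9% with library size alone and by 82.7% after thinning to the smallest library. A test against 1.5-fold in place of 0 called 2191 interactions. Same-numbered replicates of different groups correlated at -0.197 to 0.201, with 2 of 18 pairs over 0.1, and differently numbered ones at -0.177 to 0.173. With 3 libraries per group these values cannot tell whether a number marks a shared batch. With the number as a block 8208 interactions were called in place of 8226.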

Other observations

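The genes here were chosen after their values were seen. Iars, the isoleucyl-tRNA synthetase, went from 277, 285 and 273 to 119, 117 and 109 CPM in Null and from 201, 201 and 196 to 185, 184 and 179.9 CPM in DKO MEFs, a lost fall (interaction 1.15, SE 0.05). Bcat1, a branched-chain aminotransferase, went from 348, 337 and 360.5 to 131, 128 and 121 CPM in Null and from 228, 225 and 228 to 229.7, 218 and 235 CPM in DKO MEFs, also a lost fall (interaction 1.46). Both Null groups stood apart, and DKO libraries changed far less. Wars, the tryptophanyl-tRNA synthetase, was a gained rise: it fell by 0.27 in Null and rose by 1.01 in DKO MEFs.

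Thbs1, a secreted thrombospondin, fell by 2.27 in Null and fell by 3.85 in DKO MEFs, a strengthened fall, while its paralog Thbs2 was reversed. Of the hyaluronan synthases, Has2 fell by 1.57 in Null and fell by 3.51 in DKO MEFs, a strengthened fall, and Has3 is a lost rise.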
